A study of Mus musculus with 15 samples.

Results

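Complement genes were followed across 15 Affymetrix arrays of NIH3T3 cells, a long-established mouse fibroblast line. The 8 genes were Masp1, C1ra and Cfb, which encode proteases, C3 and C4b, which encode central components, Serping1, which encodes a secreted inhibitor, and Cd55 and Cd59a, which encode regulators on the cell surface. Every probe set annotated to these symbols was taken, which gave 16 of the 45101 probe sets on the array, covering 7 of the 8 genes. C3 is not analysed here, because no probe set carries its name in the annotation used. Of the 16 probe sets, 13 carried 1 symbol and 3 were shared with a near-identical neighbour, namely C4a/C4b, C1ra/C1rb and Cd55/Cd55b, so C4b was read only through a shared probe set.

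All cultures carried the retroviral vector pBabe-puro, and the comparisons ask how different Runx transcription factors, expressed in the same cells, act on gene levels. Mouse Runx1, mouse Runx2 and mouse Runx3 were expressed constitutively, with 2 arrays each, and human RUNX1 was expressed constitutively on 1 array. The inducible human construct RUNX1-ER was profiled with 4-OHT, the active form of tamoxifen (induced, 2 arrays), and without it (uninduced, 2 arrays). Cells with the empty vector were profiled with 4-OHT (2 arrays) and without it (2 arrays, called vector below). Cultures grew for 7 days to confluence and received ethanol at 0.2%, alone or with 4-OHT, for 24 h, and the labels give the 4-OHT concentration as 0.1 mM without saying which of these the constitutive lines received. The titles number biological replicates without stating whether separate cultures or transductions stand behind them, or whether a line is 1 clone. The p-values therefore measure the spread between arrays of a group, and that spread may be technical.

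The complement system is a cascade of proteases and binding proteins, made largely in liver but also by fibroblasts and other tissue cells. The classical pathway starts when C1q binds a target and its partner protease C1r activates C1s, and the lectin pathway starts when mannose-binding lectin, ficolins or collectins bind sugars and activate the MASP proteases. Both lead through C4 and C2 to cleavage of C3, which the alternative pathway amplifies through factor B and factor D, and the terminal components then form the membrane attack complex, which host cells block with inhibitors such as C1 inhibitor, CD55 and CD59.

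Array medians ranged over 3.69 to 3.75 log2 units. Of the 14 arrays in groups of 2, 10 correlated best with their own replicate over all probe sets, and the exceptions were Runx2 replicate 2, which was closest to an induced RUNX1-ER array, uninduced RUNX1-ER replicate 1 and both vector arrays with 4-OHT, which were closest to a vector array. The results below were therefore also computed without each array in turn. All 10 fibroblast markers were bright, with means over the arrays between 7.94 and 13.2 log2 units. None of 7 macrophage markers had a mean above 5 log2 units, the highest being Csf1r at 4.67, and 1 of 5 measured hepatocyte markers, Apoa1 at 5.09, did.

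**Figure D1:**
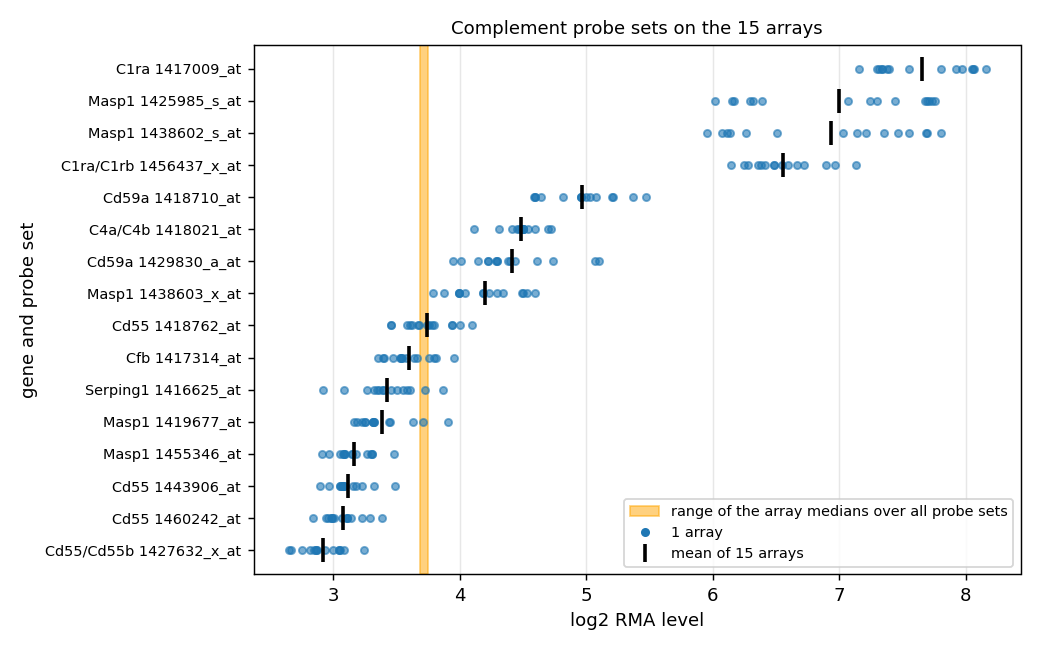
Log2 RMA level (horizontal axis) of the 16 complement probe sets (rows, by mean), with 1 point per array, a black bar for the mean of 15 arrays and a shaded band for the range of array medians over all probe sets. C1ra, C1ra/C1rb and a pair of Masp1 probe sets lie well above the band, and those of Serping1, Cfb and Cd55 scatter around or below it.

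Levels on a log2 scale from different probe sets are not set against each other, so each is described by its own arrays and by its place among all probe sets on an array. The C1ra probe set exceeded 86.5% to 92.3% of the probe sets on its array, and Masp1 1425985_s_at exceeded 78.0% to 90.7%. Cd59a 1418710_at exceeded 66.3% to 73.9%, and the shared C4a/C4b probe set 60.8% to 68.2%. Cfb exceeded 32.4% to 56.1%, Serping1 7.02% to 54.5%, and the brightest Cd55 probe set 38.1% to 59.6%. No detection calls were available, so a dim gene cannot be called absent, and in cultured cells fewer expressing cells and less RNA per cell cannot be told apart.

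Across the comparisons, the members that passed the test (limma, Benjamini-Hochberg adjusted p under 0.05 over 45037 probe sets) were Masp1, C1ra and Cd59a, each higher and none lower in the Runx group. Runx1 against vector called 1 of 7 member genes higher, where 0.890% of 18193 genes were called higher. Runx2 called 2 of 7 against 0.874% of all genes, and Runx3 called 3 of 7 against 3.76%. Between lines, Runx2 against Runx1 called 0 of 7 (0.484% of all genes higher), Runx3 against Runx1 called 2 of 7 (2.35%) and Runx3 against Runx2 called 0 of 7 (1.62%). For these counts of 0, limma gave an unadjusted p under 0.05 for 6 and 5 of the 16 member probe sets. Over all 45037 probe sets it did so for 4158 and 5209. These comparisons share arrays, and the members were chosen with such results known, so the counts describe the list.

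In the inducible system, induced against uninduced RUNX1-ER called 3 of 7 member genes higher, where 0.951% of all genes were called higher. Induced RUNX1-ER against vector with 4-OHT also called 3 of 7 (2.54% of all genes higher). Subtracting the 4-OHT effect in vector cells from the induction called 2 of 7 (0.473%), Masp1 and Cd59a. Vector with 4-OHT against vector called 0 of 7 (0.00% of all genes higher), and uninduced RUNX1-ER against vector called 0 of 7 (0.0110%). Limma's unadjusted p was under 0.05 for 1 of 16 member probe sets in each. Over all 45037 probe sets it was under 0.05 for 2773 and 2985.

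Masp1 lies at chr16:23451785-23521240 in build GRCm38.p6, and it encodes MASP-1, the lectin-pathway protease that starts the cascade, and by alternative splicing MASP-3 and an inhibitor without the protease domain. Every Runx line had more of it. Probe set 1425985_s_at read 7.69 and 7.68 log2 units in Runx1 cells, 7.30 and 7.44 in Runx2 cells, 7.73 and 7.71 in Runx3 cells, and 6.29 and 6.15 in vector cells. No array of a Runx line overlapped the vector arrays. The limma difference was 1.46 (2.76-fold, SE 0.10, adjusted p = 5.79e-06) for Runx1, 1.15 (2.21-fold, adjusted p = 3.76e-05) for Runx2 and 1.50 (2.82-fold, adjusted p = 8.42e-07) for Runx3. Each of these 3 calls held when any array was left out. The single human RUNX1 array read 7.76, which was 1.54 log2 units (2.90-fold) above the vector mean and has no test; 0.467% of all genes were at least 2-fold higher on it.

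**Figure D2:**
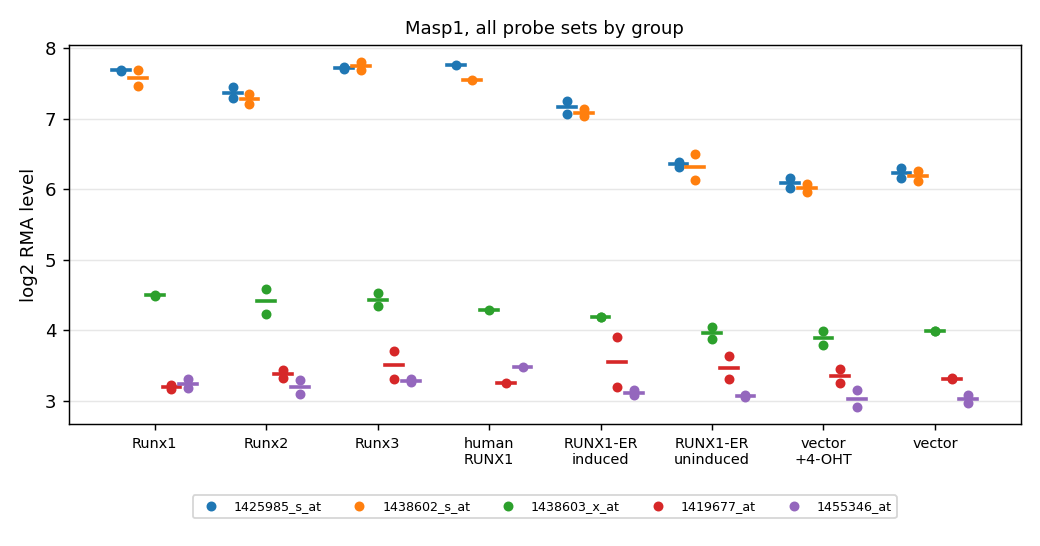
Log2 RMA level of Masp1 probe sets by group, with 1 point per array and a line at each group mean. On 1425985_s_at the arrays of the 3 mouse Runx lines lie between 7.30 and 7.73 and the vector arrays at 6.15 and 6.29.

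The 5 Masp1 probe sets did not move alike. Probe set 1438602_s_at read 7.47 and 7.69 in Runx1 cells, 7.35 and 7.21 in Runx2 cells, 7.68 and 7.80 in Runx3 cells, and 6.11 and 6.26 in vector cells, which gave differences of 1.39 (adjusted p = 8.09e-05), 1.09 (4.65e-04) and 1.56 (5.16e-06). Probe set 1438603_x_at, which shares its source accession with 1438602_s_at, was dim, with differences of 0.50 (adjusted p = 0.104) in Runx1, 0.42 (0.175) in Runx2 and 0.44 (0.0618) in Runx3, and did not pass. Probe sets 1419677_at and 1455346_at stayed between 3.16 and 3.90 and between 2.91 and 3.48 over the 15 arrays and passed in no comparison. Against vector cells given 4-OHT instead, 1438603_x_at passed in Runx1 (0.60, adjusted p = 0.0282) and Runx3 (0.54, adjusted p = 0.0178). Which transcript each probe set reads was not determined here.

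Among the groups of 2 arrays, Masp1 on 1425985_s_at was highest in Runx3 (mean 7.72), then Runx1 (7.69), Runx2 (7.37) and induced RUNX1-ER (7.16). Below these came uninduced RUNX1-ER (6.35), vector (6.22) and vector with 4-OHT (6.09). The single human RUNX1 array, at 7.76, lay above all these means. Runx3 against Runx1 differed by 0.03 (95% interval -0.18 to 0.25, adjusted p = 0.947) and Runx2 against Runx1 by -0.32 (adjusted p = 0.270). Runx3 against Runx2 differed by 0.35 (adjusted p = 0.123), and with only probe sets averaging above 5 log2 units tested this passed (adjusted p = 0.0315). The difference between Runx2 and induced RUNX1-ER was not tested.

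Masp1 rose on induction of RUNX1-ER. On 1425985_s_at the induced arrays read 7.24 and 7.07, the uninduced 6.39 and 6.32, vector with 4-OHT 6.02 and 6.16, and vector 6.29 and 6.15. Both induced arrays lay above all 6 of the others. The difference of induced from uninduced was 0.81 (1.75-fold, adjusted p = 0.00111), and from vector with 4-OHT it was 1.07 (2.10-fold, adjusted p = 7.87e-05), and these calls held with any array left out. 4-OHT in vector cells changed it by -0.13 (adjusted p = 0.894), and uninduced RUNX1-ER against vector differed by 0.13 (adjusted p = 0.891). After subtracting the 4-OHT difference the induction was 0.94 (SE 0.14, adjusted p = 0.0111). That last call was lost without uninduced RUNX1-ER replicate 2 (adjusted p = 0.0537), induced replicate 1 (0.0755) or vector replicate 1 (0.0861). Probe set 1438602_s_at gave 0.77 for induction (adjusted p = 0.00971), lost without uninduced replicate 1 (0.0631), induced replicate 1 (0.126) or induced replicate 2 (0.0692), and 0.94 beyond 4-OHT (adjusted p = 0.0538).

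Among the regions before a transcript start of the member genes, those of Cd59a and C1ra are shown, because both genes passed the test in at least 1 comparison and have an entry in RefSeq's table. Each is the 250 bases before the transcript start in RefSeq's table for GRCm38.p6, with the letters TGTGGT, which Runx proteins are known to bind, in capitals.
Cd59a chr2:104095551-104095800 (+): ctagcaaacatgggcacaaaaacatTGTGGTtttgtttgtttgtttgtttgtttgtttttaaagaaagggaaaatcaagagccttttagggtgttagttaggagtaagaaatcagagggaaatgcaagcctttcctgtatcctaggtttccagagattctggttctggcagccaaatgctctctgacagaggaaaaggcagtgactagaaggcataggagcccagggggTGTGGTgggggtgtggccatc
C1ra chr6:124512371-124512620 (+): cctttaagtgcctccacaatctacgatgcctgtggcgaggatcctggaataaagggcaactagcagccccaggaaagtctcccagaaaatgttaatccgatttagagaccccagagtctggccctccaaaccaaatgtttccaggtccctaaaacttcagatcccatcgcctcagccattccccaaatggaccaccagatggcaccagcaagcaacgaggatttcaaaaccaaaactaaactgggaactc
Of the 8 members, 4 had an entry. These starts are not always the outer end of the gene. The last 48 bases of the Cd59a region lie inside the span given for that gene below, the whole Cd55 region of 250 bases lies inside the Cd55 span, and 0 bases of the C1ra region lie inside its span. The Cd59a region holds TGTGGT at 225 to 220 bases before the transcript start and, within the gene span, at 21 to 16 bases before it, and those of C1ra and Cd55 hold neither it nor TGCGGT on either strand. Of 32851 promoter regions of the same length, 14.0% held at least 1 TGTGGT or its reverse complement ACCACA, 1.27% held at least 2, and 5.10% held at least 1 TGCGGT or ACCGCA.

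C1ra, at chr6:124512621-124523440, encodes C1r, the protease that activates C1s in the classical pathway. It rose in Runx2 and Runx3 and did not pass in Runx1. Probe set 1417009_at read 7.34 and 7.55 log2 units in Runx1 cells, 7.80 and 8.16 in Runx2 cells, 7.92 and 7.97 in Runx3 cells, and 7.37 and 7.31 in vector cells. Runx2 and Runx3 arrays lay above both vector arrays, whereas 1 Runx1 array lay between them. The difference was 0.64 (1.56-fold, SE 0.12, adjusted p = 0.0144) for Runx2, 0.60 (1.52-fold, adjusted p = 0.00779) for Runx3 and 0.10 (95% interval -0.15 to 0.36, adjusted p = 0.967) for Runx1. Runx2 lost the call without vector replicate 1 (adjusted p = 0.103), vector replicate 2 (0.140) or Runx2 replicate 2 (0.0971), and Runx3 lost it without vector replicate 2 (0.0791) or Runx3 replicate 2 (0.0711). Runx3 exceeded Runx1 by 0.50 (adjusted p = 0.0340), a call that was lost with any 1 of the 4 arrays left out (adjusted p from 0.0534 to 0.269), and Runx2 exceeded Runx1 by 0.53 (adjusted p = 0.0645). The human RUNX1 array read 8.06, 0.72 log2 units (1.64-fold) above the vector mean, untested.

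The probe set shared by C1ra and C1rb read 6.49 and 6.41 in Runx1 cells, 6.72 and 7.13 in Runx2 cells, 6.49 and 6.59 in Runx3 cells, and 6.55 and 6.35 in vector cells. It passed in no comparison, with a difference of 0.48 (adjusted p = 0.149) in Runx2 and 0.09 (adjusted p = 0.883) in Runx3. On induction of RUNX1-ER it differed by 0.57 (adjusted p = 0.0782), which passed with only probe sets averaging above 5 tested (adjusted p = 0.0337) and with an intensity trend (0.0315). Induced RUNX1-ER against vector with 4-OHT differed by 0.47 (adjusted p = 0.113), which passed with that filter (0.0483). C1rb is a close copy of C1ra, and how much of its RNA either probe set takes up was not tested. With vector cells given 4-OHT as the control the Runx2 difference was 0.62 (adjusted p = 0.0388).

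Induced RUNX1-ER cells had more C1ra. The induced arrays read 8.06 and 8.05, the uninduced 7.34 and 7.39, vector with 4-OHT 7.15 and 7.30, and vector 7.37 and 7.31. The induced arrays stood above all the others in this system. Induction gave 0.69 (1.62-fold, adjusted p = 0.0111), lost with any 1 of 4 arrays left out (adjusted p from 0.0558 to 0.113), and induced against vector with 4-OHT gave 0.83 (1.78-fold, adjusted p = 0.00209), which held with any array left out. 4-OHT alone gave -0.12 (adjusted p = 0.930), and the induction beyond 4-OHT was 0.81 (adjusted p = 0.0744), which passed with only probe sets averaging above 5 tested (adjusted p = 0.0313) and with an intensity trend (adjusted p = 0.0132).

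Cd59a, at chr2:104095753-104115410, encodes the GPI-anchored protein that stops assembly of the membrane attack complex. It rose in Runx3. Probe set 1418710_at read 4.95 and 5.03 log2 units in Runx1 cells, 5.21 and 5.20 in Runx2 cells, 5.37 and 5.47 in Runx3 cells, and 4.95 on both vector arrays, which were identical to the digits deposited. The Runx3 arrays were the highest of the 15. Against vector the difference was 0.04 (adjusted p = 0.992) for Runx1, 0.25 (adjusted p = 0.280) for Runx2 and 0.47 (1.38-fold, SE 0.09, adjusted p = 0.00476) for Runx3, the last being lost without Runx3 replicate 2 (adjusted p = 0.0628). The other probe set, 1429830_a_at, read 4.29 and 4.44 in Runx1 cells, 4.73 and 4.61 in Runx2 cells, 5.06 and 5.10 in Runx3 cells, and 4.23 and 4.29 in vector cells, with a difference of 0.83 (1.77-fold, SE 0.13, adjusted p = 0.00111) for Runx3, which held with any array left out (adjusted p from 0.0104 to 0.0189). Runx3 exceeded Runx1 by 0.43 (adjusted p = 0.0121) and 0.72 (adjusted p = 0.00441) on the 2 probe sets. These calls were lost without Runx1 replicate 1 (adjusted p = 0.110 and 0.0612), and the first also without Runx3 replicate 2 (0.122). The human RUNX1 array read 4.81 and 4.29, -0.14 and 0.03 log2 units from the vector mean, untested.

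The 2 sets of vector arrays gave different calls for Cd59a on 1418710_at, and not on 1429830_a_at. Vector cells with 4-OHT read 4.58 and 4.64 on 1418710_at, below both vector arrays, a difference of -0.34 with an unadjusted p of 0.00155 and an adjusted p of 0.633. Uninduced RUNX1-ER read 4.59 and 4.59, a difference of -0.36 from vector (adjusted p = 0.300). Set against vector with 4-OHT, Runx1 was higher by 0.38 (adjusted p = 0.0478) and Runx2 by 0.59 (adjusted p = 0.00233) on this probe set. On 1429830_a_at these differences were 0.17 (adjusted p = 0.682) and 0.48 (adjusted p = 0.0939) and did not pass. There the vector arrays with 4-OHT read 4.01 and 4.38, on either side of the vector arrays at 4.23 and 4.29. The induced RUNX1-ER arrays read 5.07 and 5.00, against 4.95 in vector, and that difference was not tested. Induction gave 0.44 (1.36-fold, adjusted p = 0.0254) and induced against vector with 4-OHT gave 0.42 (adjusted p = 0.0216), and both were lost with any 1 of 4 arrays left out (adjusted p from 0.0733 to 0.234 and from 0.0756 to 0.198) and with an intensity trend (0.0799 and 0.0663). Induction beyond 4-OHT gave 0.79 (adjusted p = 0.0124), lost without uninduced replicate 2 (0.0504), induced replicate 1 (0.0811), vector replicate 1 (0.0786) or vector replicate 2 (0.0655). On 1429830_a_at the induction was 0.26 (adjusted p = 0.565).

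**Figure D3:**
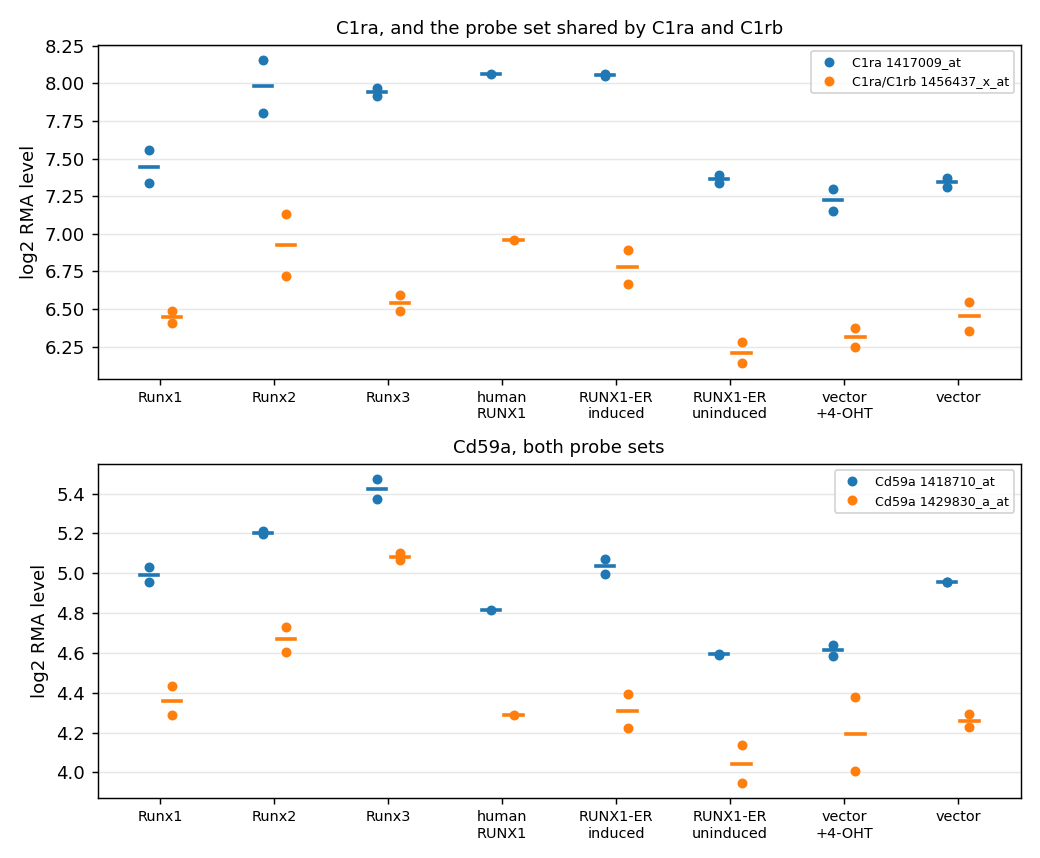
Log2 RMA level of C1ra (upper) and Cd59a (lower) probe sets by group, with 1 point per array and a line at each group mean. C1ra 1417009_at lies between 7.80 and 8.16 in Runx2, Runx3, human RUNX1 and induced RUNX1-ER, and between 7.15 and 7.55 on the other arrays, and both Cd59a probe sets are highest in Runx3.

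**Figure D4:**
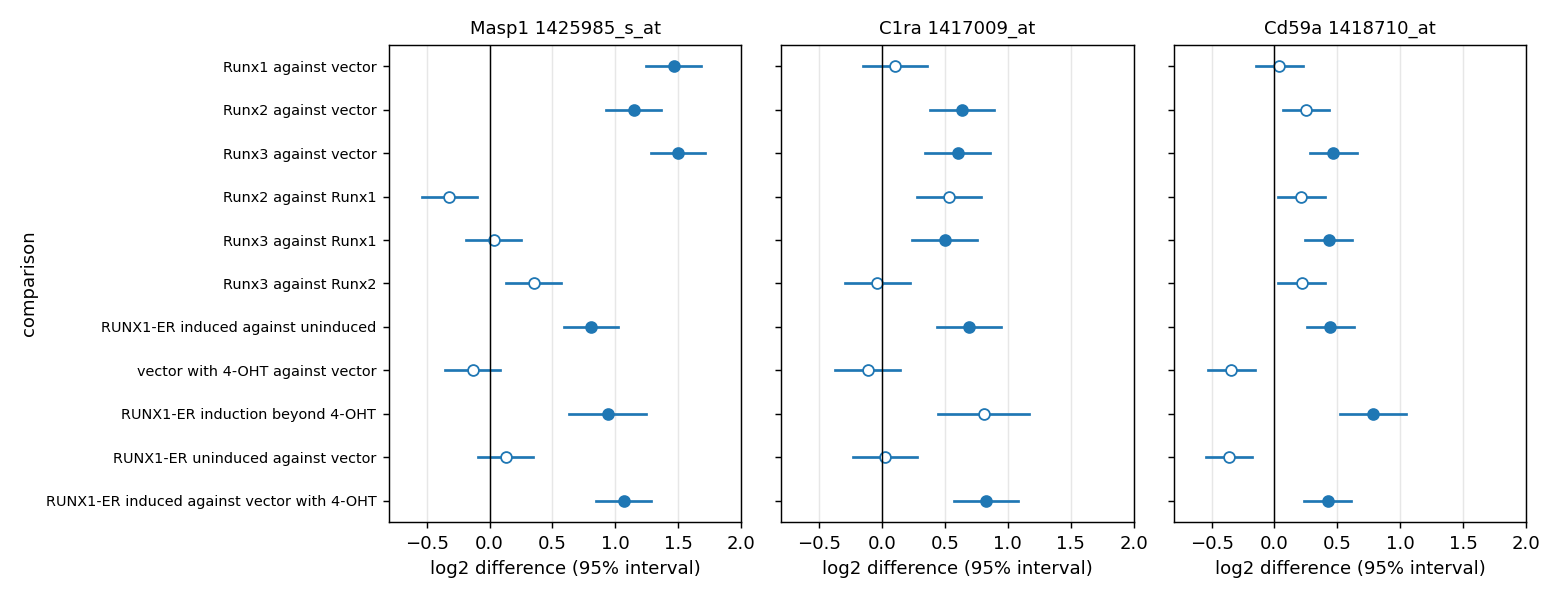
Log2 difference with its 95% interval (horizontal axis) for Masp1, C1ra and Cd59a in 11 comparisons (rows), with filled points where limma's adjusted p is under 0.05. Masp1 differences lie at 0.81 or above for the 3 mouse lines against vector and for induced RUNX1-ER against either control, and the 3 genes' differences for vector with 4-OHT against vector lie below 0.

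The remaining members did not pass in any of the 11 comparisons. Cfb (chr17:34856374-34862514), whose protein is the catalytic part of the alternative-pathway convertase, lay between 3.35 and 3.96 log2 units over the 15 arrays, with differences from -0.34 to 0.28 and adjusted p of at least 0.480. C4b, at chr17:34728139-34743902, encodes the classical-pathway component cleaved by C1s. The shared C4a/C4b probe set lay between 4.11 and 4.72, with differences from -0.20 to 0.17 and adjusted p of at least 0.776. Serping1 (chr2:84765360-84775444), which encodes C1 inhibitor, an inhibitor of C1r, C1s and the MASPs, lay between 2.92 and 3.86, with differences from -0.15 to 0.40 and adjusted p of at least 0.642. Cd55 (chr1:130429798-130465009), whose protein speeds the decay of the convertases, had its brightest probe set, 1418762_at, between 3.45 and 4.09, with differences from -0.49 to 0.25 and adjusted p of at least 0.184. The other Cd55 probe sets and the one shared with Cd55b lay between 2.65 and 3.48 and passed in no comparison. RMA understates the differences of dim probe sets.

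Of 48 further complement genes, 39 were measured, and 5 of these had a mean above 5 log2 units (Colec12, C1s1, C1qbp, Cr1l and Clu). Runx1 called 0 higher and 0 lower, Runx2 called 1 lower, and Runx3 called 1 higher and 2 lower, beside 0.698%, 1.57% and 5.22% of all genes lower, and 0.890%, 0.874% and 3.76% of all genes higher. Runx3 against Runx1 called 1 higher (2.35% of all genes) and 1 lower (3.96%), Runx3 against Runx2 called 1 lower (1.56%) and induced RUNX1-ER against vector with 4-OHT called 1 lower (1.04%). The median difference in the list was -0.04, -0.02 and -0.04 log2 units for the 3 lines, and over all genes -0.01, -0.01 and 0.00. Colec12, a scavenger receptor of the collectin family, read 7.96 and 7.94 in Runx1 cells, 7.55 and 7.81 in Runx2 cells, 6.97 and 7.43 in Runx3 cells, and 8.44 and 8.37 in vector cells. All arrays of the 3 lines lay below both vector arrays, and the Runx1 difference of -0.45 did not pass (adjusted p = 0.235). It fell by 1.20 in Runx3 (limma, adjusted p = 8.24e-05), held with any array left out, and fell by 0.72 in Runx2 (adjusted p = 0.0140), lost without vector replicate 1 (0.162), vector replicate 2 (0.0897) or Runx2 replicate 1 (0.167). It was also lower in Runx3 than in Runx1 by -0.75 (adjusted p = 0.00560), lost without Runx1 replicate 1 (0.0510) or Runx3 replicate 1 (0.0597).

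C1s1, which encodes the C1s partner of C1r, read 7.15 and 7.20 in Runx3 cells and 7.68 and 7.91 in Runx2 cells, a difference of -0.62 (limma, adjusted p = 0.0289) that was lost without any 1 of the 4 arrays (adjusted p from 0.0525 to 0.158). Against vector it differed by 0.23 in Runx2 (adjusted p = 0.635) and -0.39 in Runx3 (adjusted p = 0.129). C1qbp, a C1q-binding protein found mainly in mitochondria, was higher in Runx3 than in vector by 0.37 (adjusted p = 0.0187, 1455821_x_at). On that probe set it was also higher in Runx3 than in Runx1, by 0.38 (adjusted p = 0.0189). Each call was lost without any 1 of its 4 arrays (differences from 0.34 to 0.39 and from 0.36 to 0.40). On its other probe set, 1448274_at, Runx3 differed from vector by 0.30 and did not pass (adjusted p = 0.0894). There Runx3 exceeded Runx1 by 0.38 (adjusted p = 0.0355), also lost without any 1 of the 4 arrays. Clu, which encodes clusterin, an inhibitor of the terminal complex, had 4 probe sets. In Runx3 they differed from vector by -0.49, -0.47, -0.56 and -0.54. Of the 4, 1 passed (1418626_a_at, -0.49, adjusted p = 0.0212) and the others did not (0.0743, 0.0894 and 0.0816). The call was lost without vector replicate 1 (0.158), vector replicate 2 (0.0981) or Runx3 replicate 1 (0.200). Another, 1437458_x_at, was lower in induced RUNX1-ER than in vector with 4-OHT by -0.61 (adjusted p = 0.0393). That call was lost without any 1 of the 4 arrays (differences from -0.73 to -0.49). In the same comparison the other Clu probe sets differed by -0.38, -0.30 and -0.03 and did not pass (adjusted p = 0.127, 0.516 and 0.969). No other pathway gene passed in the other comparisons of the inducible system. There limma gave unadjusted p under 0.05 for 10 of 65 pathway probe sets on induction and 7 beyond 4-OHT. Over all 45037 probe sets the counts were 4090 and 3871.

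**Figure D5:**
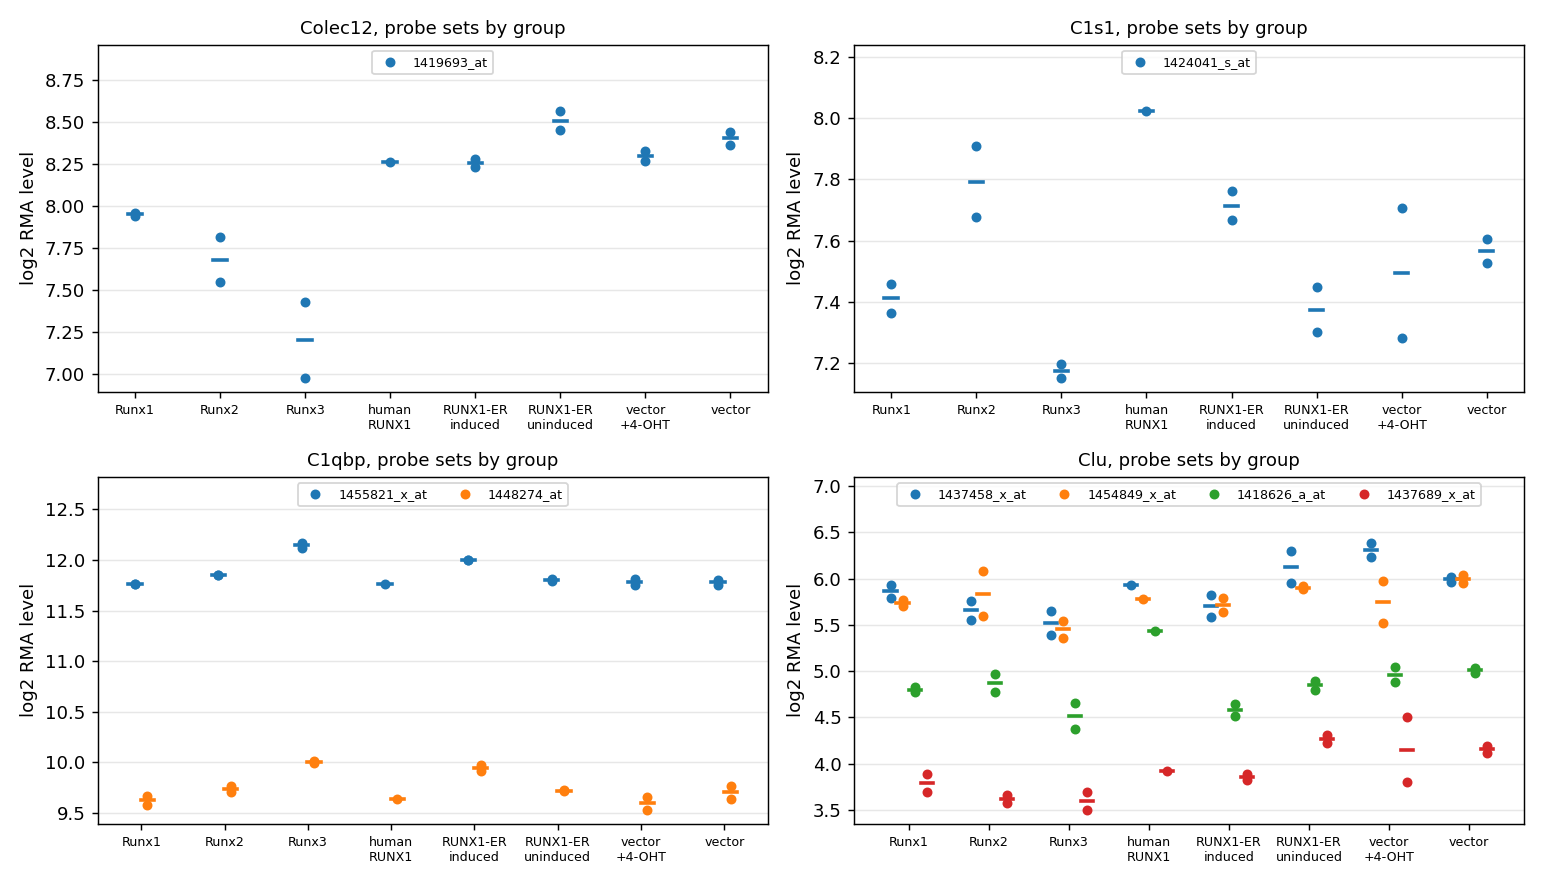
Log2 RMA level of the pathway genes Colec12, C1s1, C1qbp and Clu by group, with 1 point per array and a line at each group mean. Colec12 is lowest in Runx3, at 6.97 and 7.43, and C1s1 is lower in Runx3, at 7.15 and 7.20, than in Runx2, at 7.68 and 7.91.

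Some cell type markers moved with the Runx lines. Lpl, the 1 of 4 measured adipocyte markers to pass, was higher by 1.49 in Runx2 (adjusted p = 0.00105) and 0.86 in Runx3 (adjusted p = 0.0190). Of all genes, 0.874% were called higher in Runx2 and 3.76% in Runx3. The summed level of all 4 was 15.9 and 15.6 log2 units in Runx2 cells, 15.3 and 15.2 in Runx3 cells and 14.3 and 14.4 in vector cells. Lpl itself read 5.22 and 4.79 log2 units in induced and 4.00 and 4.53 in uninduced RUNX1-ER cells. It did not pass on induction, on induction beyond 4-OHT or in induced RUNX1-ER against vector with 4-OHT. On the human RUNX1 array Lpl read 3.91, and on the vector arrays 4.55 and 4.41. Without Lpl, the other 3 summed to 9.77 and 9.72 in Runx2 cells, 9.75 and 10.1 in Runx3 cells, and 9.72 and 9.99 in vector cells, so the groups overlapped. None of 7 macrophage markers passed in any comparison.

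Of the 10 fibroblast markers, Runx1 called 1 higher (Pdgfrb) and 1 lower (Fn1), beside 0.890% of all genes higher and 0.698% lower. Runx2 called 2 higher (Col5a1 and Pdgfrb), beside 0.874% of all genes. Runx3 called 3 higher (Col1a1, Col5a1 and Pdgfrb) and 3 lower (Col3a1, Lox and Thy1), beside 3.76% and 5.22% of all genes. Fn1 in Runx1 and Lox in Runx3 passed on a dimmer probe set, and the brightest probe set of each did not pass. Pdgfrb differed by 1.15, 0.98 and 0.89 in Runx1, Runx2 and Runx3, and by 1.00 in induced RUNX1-ER against vector with 4-OHT (adjusted p = 0.00475). That last comparison called 2 of the 10 markers higher (Col5a1 and Pdgfrb) and 2 lower (Col3a1 and Lox). Of all genes, 2.54% were called higher there and 1.04% lower. Induced against uninduced RUNX1-ER called 1 higher (Col5a1) and 0 lower, beside 0.951% of all genes higher, so Pdgfrb did not pass there. Col5a1 differed by 0.90 in Runx2, 2.28 in Runx3 and 1.50 on induction of RUNX1-ER, and Thy1 by -1.21 in Runx3. The part of these markers in the complement results was not tested.

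By root mean square difference of centred log2 values over the 15 arrays, the genes nearest to Masp1 1425985_s_at were Angptl4 (0.188) and Ccbe1 (0.228), where the median over 7893 candidate genes was 0.678. Nearest to C1ra were Grb10 (0.128) and Tspan4 (0.148), with a median of 0.374. Nearest to Cd59a 1418710_at were Shmt1 (0.102) and Rangrf (0.119), with a median of 0.297. The root mean square of Masp1, C1ra and Cd59a about their own means was 0.665, 0.344 and 0.272, close to these medians. The nearest genes were picked as the smallest over all candidates, so lying below the median was set by that choice. Angptl4 read 8.01, 7.80 and 8.10 in Runx1, Runx2 and Runx3 cells, 7.82 in induced RUNX1-ER cells, and 6.82, 6.77 and 6.91 in the uninduced, vector with 4-OHT and vector cells. Grb10 stood at 10.5, 11.0 and 11.1 in the mouse lines and 11.0 in induced cells, against 10.5, 10.4 and 10.4 in those 3 groups.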

How the data were processed

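The deposited table held log2 expression values of 45101 probe sets on 15 arrays; scanner output came from GCOS and was normalized by RMA in Bioconductor's affy module, per the labels' protocols, and neither version is given in the sources used here. RMA equalizes the arrays' distributions and shrinks dim differences, so folds are understated. Leaving out 64 control probe sets, 45037 were fitted with limma 3.58.1 (R 4.3.3), lmFit and eBayes, 1 coefficient per group over all arrays (7 residual and 6.21 prior degrees of freedom), with two-sided p adjusted by the Benjamini-Hochberg method within each of 11 comparisons and a threshold of 0.05. A gene counted as called when at least 1 of its probe sets passed. Folds were derived from log2 differences. The number of arrays limits the precision. Symbols came from the platform annotation, where 34958 probe sets had 1 symbol, 932 several and 9211 none; gene positions and upstream regions came from RefSeq (GRCm38.p6).

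The members and lists were chosen with earlier results of these data known. All members were named, from the pathway list up to 3 genes past the threshold in each direction and comparison, and for each called member the 2 genes nearest in pattern with a mean above 5. Alternatives were 1 brightest probe set per gene, only probe sets averaging above 5, an intensity trend in eBayes, arrays centred on their medians, the replicate number as a block, vector arrays with 4-OHT as control, and each array left out in turn; those of the pathway genes were added after seeing the data. The fit was tested on simulated data.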

Additional observations from a re-analysis of the deposited data

Results flagged for a closer look

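On Cd59a 1418710_at and Masp1 1425985_s_at the induction of RUNX1-ER differed from the effect of 4-OHT in vector cells, as tested by the interaction in limma. The other probe sets of these genes did not pass in the main fit. On Masp1 1438602_s_at the difference was 0.94 log2 units. It passed with only probe sets averaging above 5 tested (adjusted p = 0.0273), an intensity trend (0.0112) or the replicate block (0.0456). For Masp1 1425985_s_at the difference between these effects was 0.94 log2 units (adjusted p = 0.0111), and for Cd59a 1418710_at it was 0.79 (adjusted p = 0.0124). For Cd59a the induction was 0.44 and the effect of 4-OHT in vector cells was -0.34, and for Masp1 they were 0.81 and -0.13. The Masp1 difference lost its call without uninduced RUNX1-ER replicate 2 (adjusted p = 0.0537), induced replicate 1 (0.0755) or vector replicate 1 (0.0861), and the Cd59a difference without uninduced replicate 2 (0.0504), induced replicate 1 (0.0811), vector replicate 1 (0.0786) or vector replicate 2 (0.0655).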

How the results depend on the processing

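Of 23 calls of a member probe set in a comparison, 11 were kept under each alternative they were run under (only probe sets averaging above 5 and 1 probe set per gene leave some out), 12 were lost when at least 1 array was left out, and 2 of those were also lost with an intensity trend; no member difference turned its sign past the threshold. The number of member genes called changed in 9 of 11 comparisons under alternatives other than leaving out an array. The share of all genes called was computed for the main fit only. A changed count below therefore cannot be told from a general shift in the number of calls. With vector arrays given 4-OHT as control, Runx1 called 2 member genes (1 otherwise) and Runx2 called 3 (2 otherwise). Runx2 against Runx1 called 1 with the brightest probe set per gene, with only probe sets averaging above 5 or with the intensity trend, Runx3 against Runx1 called 1 and Runx3 against Runx2 called 1 with only probe sets averaging above 5, which leaves out both Cd59a probe sets. Runx3 called 2 with that filter (3 otherwise), RUNX1-ER induction and induced RUNX1-ER against vector with 4-OHT called 2 each with the filter or the trend (3 otherwise), and beyond 4-OHT 3 were called with the trend (2 otherwise). With an array left out, the count was 1 for Runx1, 1 to 2 for Runx2, 2 to 3 for Runx3, 0 to 1 for Runx2 against Runx1, 0 to 1 for Runx3 against Runx1, 0 for Runx3 against Runx2, 1 for RUNX1-ER induction, 0 to 2 beyond 4-OHT, 2 for induced RUNX1-ER against vector with 4-OHT, and 0 for both other comparisons of that system. Pathway genes called moved to 2 for Runx2 against vector arrays with 4-OHT (1 otherwise), to 3 for Runx3 against Runx2 with only probe sets averaging above 5 or with the intensity trend (1 otherwise), to 1, 1 and 2 for RUNX1-ER induction with the brightest probe set, centred arrays or the trend (0 otherwise), and to 2 for induced RUNX1-ER against vector with 4-OHT with the filter or the trend (1 otherwise), or 0 with the block. Runx3 called 4 pathway genes with the filter (3 otherwise). With an array left out, pathway counts were 0 to 1 for Runx2, 1 to 2 for Runx3, 0 to 2 for Runx3 against Runx1, 0 to 1 for Runx3 against Runx2, 0 to 2 for induced RUNX1-ER against vector with 4-OHT, 0 to 1 for each of the other 4 comparisons of the inducible system, and 0 for Runx1 and for Runx2 against Runx1. The causes were not tested.

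The replicate block moved no count of member genes. Masp1 1438602_s_at beyond 4-OHT (0.94) had an adjusted p of 0.0456 with the block, and Clu 1437458_x_at in induced RUNX1-ER against vector with 4-OHT (-0.61) had 0.0511. Same-numbered samples in 21 pairs of groups had correlations of deviations from -0.12 to 0.12, over 0.1 in 1 pair. Low correlations over all genes cannot show that same-numbered samples share no culture or day, which was not tested.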
